A study of Mus musculus with 24 samples.

Results

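The genes of MHC class I antigen presentation were followed in neural stem and progenitor cells (NSPCs) that carried both, 1 or no functional copies of Kat6a, the gene of a histone acetyltransferase. The set held 10 of the 26411 genes in each count table and was taken by gene symbol: B2m, H2-K1, H2-D1, Tap1, Tap2, Tapbp, Psmb8, Psmb9, Psmb10 and Nlrc5. All 10 were present in all 24 tables. Messenger RNA was sequenced from 6 groups of 4 libraries, the genotypes Kat6a+/+, Kat6a+/- and Kat6a-/- in proliferating and in differentiating culture.

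The cells came from the dorsal telencephalon, which later forms the cortex, of C57BL/6 mouse embryos at E12.5. The null allele lacks part of Kat6a and carries a premature stop codon, and it is a constitutive allele, so that it was present in all cells of the mutant embryos. Each library came from the expanded, frozen culture of a single embryo. By their labels 6 embryos were used in both conditions, but Y-linked reads, given below, conflict with a label among these. Proliferating cells had 3 days with the growth factors FGF2 and EGF. Differentiating cells had 3 days on poly-L-ornithine and laminin with serum. RNA was taken with the RNeasy mini kit from proliferating and the micro kit from differentiating cells, and an effect of the kit and one of the condition cannot be told apart.

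MHC class I molecules display peptides from inside the cell to cytotoxic T cells. The heavy chains, here H2-K1 and H2-D1, fold with the light chain B2m in the endoplasmic reticulum. Peptides are cut in the cytosol by the proteasome, carried across the membrane by the transporter of Tap1 and Tap2, and loaded with the help of tapasin (Tapbp). Psmb8, Psmb9 and Psmb10 are the catalytic subunits of the immunoproteasome, and Nlrc5 is a transactivator that acts at class I promoters. The pathway is induced by interferons and is usually weakly expressed in unstimulated neural cells.

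Of the 10 genes, 7 lay on chromosome 17 between positions 34134873 and 35486475 of GRCm39, B2m lay on chromosome 2 and Psmb10 and Nlrc5 on chromosome 8. The sequences of 250 bases before the transcription start are shown for the heavy chains and the light chain, because the chains differed in their response to genotype, and the 225 bases between the divergent starts of Tap1 and Psmb9, because that pair shares its upstream sequence. They were read from RefSeq windows on GRCm38.p6, which matched 8 of the 10 genes. Tap2 and Nlrc5 had no window. Capitals mark matches to TGACG (the core of the X2 box), ATTGG or its complement CCAAT, GGGANTCCC (an NF-kappaB palindrome), a long NF-kappaB form (GGGA, 1 free base and TTTCC), the core of the interferon-stimulated response element (GAAA, 2 free bases and GAAA) and TATAAA, searched on both strands. No motif contains another one.
H2-K1, chr17:34000334-34000583, minus strand: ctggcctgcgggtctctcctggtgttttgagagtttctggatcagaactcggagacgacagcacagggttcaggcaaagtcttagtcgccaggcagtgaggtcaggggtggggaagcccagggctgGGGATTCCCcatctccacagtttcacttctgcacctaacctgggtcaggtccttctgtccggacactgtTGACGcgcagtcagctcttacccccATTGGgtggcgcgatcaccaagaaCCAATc
H2-D1, chr17:35262844-35263093, plus strand: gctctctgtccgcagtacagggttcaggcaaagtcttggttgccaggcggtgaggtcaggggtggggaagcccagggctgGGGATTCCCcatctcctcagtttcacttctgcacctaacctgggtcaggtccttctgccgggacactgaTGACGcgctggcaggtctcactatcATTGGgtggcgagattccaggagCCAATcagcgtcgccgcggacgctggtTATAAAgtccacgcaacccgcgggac
B2m, chr2:122147437-122147686, plus strand: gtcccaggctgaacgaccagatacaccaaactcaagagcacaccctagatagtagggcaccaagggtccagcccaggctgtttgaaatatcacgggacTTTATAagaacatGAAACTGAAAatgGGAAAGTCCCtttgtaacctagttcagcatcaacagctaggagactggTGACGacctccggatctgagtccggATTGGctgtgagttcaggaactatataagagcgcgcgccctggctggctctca
Tap1 and Psmb9, chr17:34187331-34187555, plus strand, read from Psmb9 to Tap1: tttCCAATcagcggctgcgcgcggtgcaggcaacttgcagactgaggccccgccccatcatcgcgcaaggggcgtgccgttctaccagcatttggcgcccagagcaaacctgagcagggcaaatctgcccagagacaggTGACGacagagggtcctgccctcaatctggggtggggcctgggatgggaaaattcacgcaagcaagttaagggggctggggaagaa

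Both heavy chain windows held GGGATTCCC, TGACG and ATTGG in the same order. The window of H2-K1 is the second of 2 annotated starts, and the first one held the same 3 matches. Both printed heavy chain windows also held CCAAT, and that of H2-D1 held TATAAA. B2m held TATAAA on the minus strand, GAAACTGAAA, the long NF-kappaB form on the minus strand, TGACG and ATTGG. The stretch between Tap1 and Psmb9 held CCAAT and TGACG. Tapbp held ATTGG 2 times, Psmb8 held TATAAA and Psmb10 held none of the 6 motifs. Among all 32851 windows of this length, 17.8% held TGACG, 33.8% held ATTGG, 2.98% held the response element core, 0.636% held GGGANTCCC, 0.356% held the long NF-kappaB form and 12.4% held TATAAA. These matches describe the letters only.

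Library totals ran from 7826660 to 40838203 counts, the highest in Kat6a+/+ proliferating replicate 1. The proliferating cultures stemmed from 5 litters, the differentiating ones from 7. By Y-linked reads above 100 CPM, 3 of 4 cultures were male in each Kat6a+/+ group and 1 of 4 in each mutant group, so sex and litter were partly confounded with genotype. Kat6a+/+ replicate 1 carried the same embryo label in both conditions. Its Y-linked reads were 211 CPM in the differentiating and 0.049 CPM in the proliferating library, so its labels conflict. Kat6a+/+ replicate 2 had 0.109 CPM in the differentiating (litter 4364) and 220 CPM in the proliferating library (litter 4346). Litter labels were used as given. Kat6a reads were counted over the whole gene, part of which the allele keeps, and ranged from 373 to 409 CPM in Kat6a+/+ and from 334 to 389 CPM in Kat6a-/- proliferating NSPCs. In differentiating NSPCs Kat6a ranged from 239 to 292 CPM in Kat6a+/+ and from 160 to 253 CPM in Kat6a-/-. These totals are therefore only a partial check of the genotype labels. The 10 neural stem and progenitor markers were detected in every group.

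Levels are given as CPM, the counts of a gene relative to the TMM-scaled size of its library, and levels of different genes are set side by side only as RPKM, which also divides by gene length. In proliferating Kat6a+/+ NSPCs the light chain stood far above its partners, with B2m at 82.2 ± 6.27 RPKM (mean ± SD, n = 4), H2-K1 at 34.8 ± 9.97 RPKM and H2-D1 at 12.6 ± 1.86 RPKM. Psmb10 at 7.64 ± 1.02 RPKM and Tapbp at 5.38 ± 0.652 RPKM followed. Tap1 at 2.67 ± 0.714 RPKM and Tap2 at 2.29 ± 0.43 RPKM lay within each other's spread. Psmb8 at 0.53 ± 0.15 RPKM, Psmb9 at 0.131 ± 0.0507 RPKM and Nlrc5 at 0.102 ± 0.0357 RPKM were the lowest, with Psmb9 at 1 to 8 counts a library. Most of the signal of the set thus came from its chains, and the inducible proteasome subunits Psmb8 and Psmb9 and the transactivator rested on few counts.

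**Figure D1:**
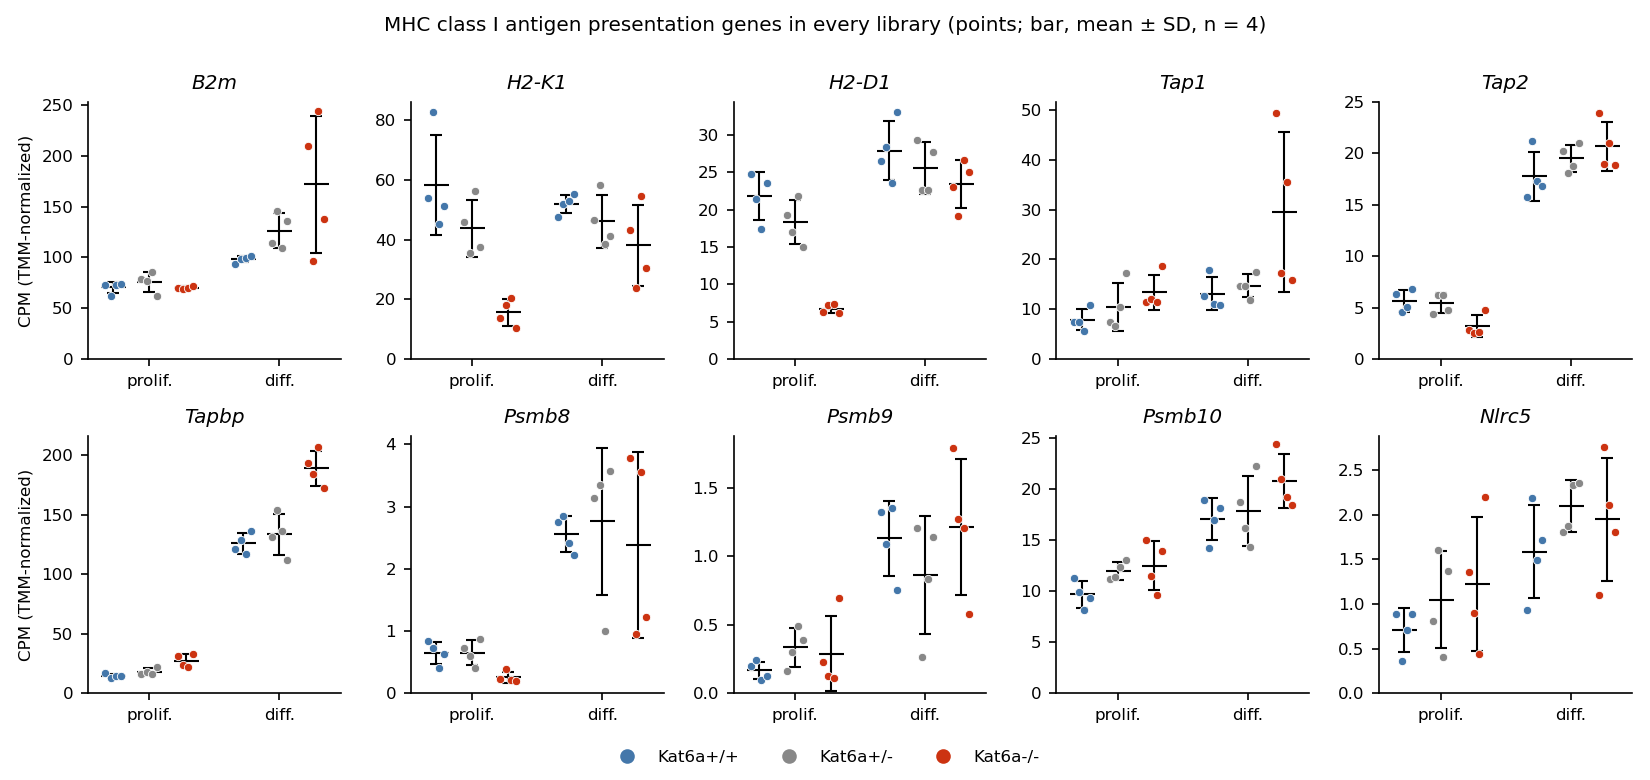
Level of each of the 10 class I genes in CPM in each of the 24 libraries, by genotype and condition, with 1 point per library. In proliferating culture the 4 Kat6a-/- points of H2-K1 and H2-D1 lie below every other point of that condition. In differentiating culture they overlap with the other genotypes, whereas B2m and Tap1 spread widely in Kat6a-/- NSPCs.

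The first comparison asked how loss of Kat6a changed these genes in proliferating NSPCs. Both heavy chains fell about equally, the light chain did not pass the test, Tapbp and Tap1 rose and Tap2 fell. Of the 8 genes tested in Kat6a-/- vs. Kat6a+/+ NSPCs, 5 passed an FDR of 0.05, 2 higher and 3 lower, where 30% of all 12276 tested genes passed, 16.2% higher and 13.8% lower. The median log2 fold-change of the 8 genes was 0.18, beside -0.00 for all tested genes.

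H2-K1, a classical heavy chain, was at 53.9, 82.5, 45.1 and 51.1 CPM in the 4 Kat6a+/+ libraries, at 46.0, 35.5, 56.2 and 37.4 CPM in Kat6a+/- and at 13.9, 18.2, 20.4 and 10.4 CPM in Kat6a-/- libraries. All 4 Kat6a-/- libraries lay below all 8 others, while Kat6a+/- and Kat6a+/+ overlapped, as they did for all but 4.53% of tested genes. H2-K1 fell 3.42-fold in Kat6a-/- vs. Kat6a+/+ NSPCs (log2 fold-change -1.77, SE 0.26, limma FDR = 0.000497). H2-D1, the second classical heavy chain, was at 24.7, 21.5, 17.4 and 23.6 CPM in Kat6a+/+, at 19.3, 17, 21.8 and 15.0 CPM in Kat6a+/- and at 6.34, 7.22, 7.34 and 6.18 CPM in Kat6a-/- libraries. Again the Kat6a-/- libraries lay apart from both other genotypes. H2-D1 fell 3.04-fold (log2 fold-change -1.60, SE 0.18, limma FDR = 6.97e-05). Both falls were called in every alternative analysis and without any 1 library.

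Groups of CPM that did not overlap between Kat6a-/- and Kat6a+/+ were found in 31.3% of tested genes in this condition. Between Kat6a-/- and Kat6a+/- they were found in 12.3%. Within litters the difference had the same direction in both litters that held the 2 genotypes. In litter 4633, H2-K1 was at 45.1 CPM in the Kat6a+/+ library and at 13.9 and 18.2 CPM in the Kat6a-/- libraries, and H2-D1 was at 17.4 CPM against 6.34 and 7.22 CPM. In litter 4746, H2-K1 was at 51.1 against 20.4 CPM and H2-D1 at 23.6 against 7.34 CPM. Of the 50-base words in the H2-K1 transcripts of the GENCODE annotation, 11.3% also occurred in other genes, 6.23% in H2-D1, and for H2-D1 the share was 12.6%. Reads from such stretches may not be assignable to a single heavy chain, and how they were counted was not examined.

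B2m, the light chain, was at 73.1, 62.5, 72.9 and 73.6 CPM in Kat6a+/+, at 79.0, 76.7, 85.7 and 62.5 CPM in Kat6a+/- and at 70.0, 69.3, 70.1 and 72.2 CPM in Kat6a-/- libraries. The 3 genotypes overlapped. The log2 fold-change of Kat6a-/- vs. Kat6a+/+ was 0.04 (95% confidence interval -0.15 to 0.22, limma FDR = 0.766), an interval that leaves out a fall of the size seen in the heavy chains. The ratio of the summed heavy chains H2-K1 and H2-D1 to B2m, formed in each library from RPKM and chosen after the values were seen, was 0.586 ± 0.181 in Kat6a+/+, 0.414 ± 0.0482 in Kat6a+/- and 0.162 ± 0.0384 in Kat6a-/- NSPCs (mean ± SD, n = 4). The highest Kat6a-/- ratio, 0.201, lay below the lowest Kat6a+/- ratio, 0.347. The ratio is a description and was given no test.

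The peptide transporter split. Tap1 was at 7.56, 7.46, 5.73 and 10.8 CPM in Kat6a+/+, at 7.40, 6.62, 10.4 and 17.4 CPM in Kat6a+/- and at 11.4, 12, 11.5 and 18.7 CPM in Kat6a-/- libraries. The Kat6a-/- libraries lay above all Kat6a+/+ libraries, by little over the highest of them, and overlapped with Kat6a+/-. The log2 fold-change of Tap1 was 0.78 (SE 0.23, limma FDR = 0.0225). Its partner Tap2 was at 6.32, 4.57, 5.03 and 6.85 CPM in Kat6a+/+, at 4.43, 6.22, 6.28 and 4.78 CPM in Kat6a+/- and at 2.83, 2.58, 2.63 and 4.79 CPM in Kat6a-/- libraries. Replicate 4 of Kat6a-/- lay inside the Kat6a+/+ range and the other 3 below it.

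The fitted fall of Tap2 was -0.87 in log2 units in Kat6a-/- vs. Kat6a+/+ NSPCs (SE 0.25, limma FDR = 0.0184). The ratio of Tap1 to Tap2, formed from RPKM in the same way, was 1.01, 1.38, 0.962 and 1.33 in Kat6a+/+ libraries and 3.41, 3.92, 3.69 and 3.31 in Kat6a-/- libraries. The Kat6a+/- ratios were 1.41, 0.899, 1.40 and 3.07, all below the Kat6a-/- range. The call of Tap1 was lost with edgeR (FDR = 0.0618), when litter was a fixed term (log2 fold-change 0.47, limma FDR = 0.186), when sex was a covariate (limma FDR = 0.0517) and without any of Kat6a+/+ replicate 1, Kat6a+/+ replicate 3 and Kat6a-/- replicate 4. The call of Tap2 was lost without Kat6a+/+ replicate 1 (log2 fold-change -0.75, limma FDR = 0.0659) or Kat6a-/- replicate 3 (log2 fold-change -0.74, limma FDR = 0.0702).

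Tapbp, the bridge between transporter and heavy chain, was at 17.1, 12.7, 14.8 and 14.6 CPM in Kat6a+/+, at 16, 18.2, 16.6 and 22.6 CPM in Kat6a+/- and at 31.5, 24, 22.2 and 32.9 CPM in Kat6a-/- libraries. The Kat6a-/- libraries lay above all Kat6a+/+ libraries and overlapped slightly with Kat6a+/-. Tapbp rose by 0.85 in log2 units (SE 0.14, limma FDR = 0.000921), a call kept in every alternative. In the GENCODE annotation its exons share 20.9% of their bases with Zbtb22 on the same strand and 33% with genes on the opposite strand. Reads of these genes may be counted in it, but the overlap in the RefSeq models used for counting was not measured.

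The immunoproteasome genes were low. Psmb8 was at 0.834, 0.721, 0.402 and 0.634 CPM in Kat6a+/+ and at 0.226, 0.387, 0.219 and 0.199 CPM in Kat6a-/- libraries, which held 2, 3, 2 and 2 counts. The Kat6a-/- libraries lay below all others, but Psmb8 and Psmb9 did not reach the count minimum for testing in this condition. Psmb9 ranged from 0.101 to 0.24 CPM in Kat6a+/+, from 0.161 to 0.49 CPM in Kat6a+/- and from 0.11 to 0.698 CPM in Kat6a-/- libraries. Psmb10 was at 11.3, 9.98, 8.15 and 9.39 CPM in Kat6a+/+ and at 15.1, 11.5, 9.64 and 14.0 CPM in Kat6a-/- libraries, which overlapped (log2 fold-change 0.33, limma FDR = 0.101). Nlrc5 ranged from 0.361 to 0.888 CPM in Kat6a+/+ and from 0.438 to 2.19 CPM in Kat6a-/- libraries (log2 fold-change 0.53, 95% confidence interval -0.55 to 1.61, limma FDR = 0.438).

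The same libraries were used to ask whether 1 lost copy was enough. In Kat6a+/- vs. Kat6a+/+ proliferating NSPCs, 0 of the 8 tested class I genes passed and 0 were below an unadjusted p of 0.05 with limma. Of all tested genes, 0% passed with limma and 912 were below that unadjusted p. DESeq2 called 28 and edgeR 0 of all genes, none of them a class I gene. H2-K1 differed by -0.29 (95% confidence interval -0.70 to 0.12) and H2-D1 by -0.22 (95% confidence interval -0.47 to 0.04) on the log2 scale. Both lower bounds lie above the log2 fold-changes of Kat6a-/- vs. Kat6a+/+ NSPCs. Between Kat6a-/- and Kat6a+/- proliferating NSPCs, 3 of the 8 genes passed, where 14.8% of all genes passed, 8.47% higher and 6.3% lower. The log2 fold-change was -1.48 for H2-K1 (limma FDR = 0.00339), -1.39 for H2-D1 (limma FDR = 0.000563) and 0.64 for Tapbp (limma FDR = 0.0104). These comparisons share libraries with the first one and are not independent of it.

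The differentiating cultures gave another pattern, in which B2m, Tap1, Tap2 and Tapbp rose in Kat6a-/- NSPCs and neither heavy chain passed the test. Of the 10 tested class I genes, 4 passed in Kat6a-/- vs. Kat6a+/+ NSPCs, all higher, where 54.4% of all 13339 tested genes passed and 26.7% passed as higher. The median log2 fold-change of the 10 genes was 0.29, beside -0.02 for all tested genes. This fit weights libraries by quality. Among the Kat6a-/- libraries, replicate 3 held 69.0% of the weight, replicate 1 held 16.8%, replicate 4 held 10.0% and replicate 2 held 4.22%.

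Tapbp was at 121, 129, 117 and 137 CPM in Kat6a+/+, at 132, 154, 137 and 112 CPM in Kat6a+/- and at 194, 184, 207 and 172 CPM in Kat6a-/- libraries. The Kat6a-/- libraries lay above all 8 others. Tapbp rose by 0.71 in log2 units (SE 0.07, limma FDR = 1.19e-05), and by 0.59 without the weights (limma FDR = 0.00176), and it was the only one of the 4 whose call held in every alternative and without any 1 library. Groups of CPM that did not overlap were found in 26.9% of the tested genes between Kat6a-/- and Kat6a+/+. Between Kat6a-/- and Kat6a+/- they were found in 16.2%.

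B2m was at 94.0, 98.7, 99.1 and 102 CPM in Kat6a+/+, at 114, 146, 110 and 136 CPM in Kat6a+/- and at 209, 96.2, 244 and 138 CPM in Kat6a-/- libraries. Replicates 1 and 3 of Kat6a-/- stood above all other libraries, whereas replicate 2 lay within the Kat6a+/+ range. B2m rose by 1.15 in log2 units (SE 0.14, limma FDR = 4.73e-05), but by 0.71 without the weights (limma FDR = 0.0488). Its FDR was above 0.05 when litter was a fixed term (limma FDR = 0.0522) or with limma-voom, a random effect of litter and no weights together (limma FDR = 0.0646). Without Kat6a-/- replicate 1 the log2 fold-change was 0.62 (limma FDR = 0.138), and without Kat6a-/- replicate 3 it was 0.40 (limma FDR = 0.288).

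Tap1 was at 12.7, 18.0, 11.1 and 10.9 CPM in Kat6a+/+, at 14.8, 14.8, 11.9 and 17.5 CPM in Kat6a+/- and at 49.5, 17.2, 35.6 and 16 CPM in Kat6a-/- libraries. As for B2m, Kat6a-/- replicates 1 and 3 were high and replicates 2 and 4 lay within the Kat6a+/+ range. Tap1 rose by 1.45 in log2 units (SE 0.21, limma FDR = 0.000127), and by 1.03 without the weights (limma FDR = 0.0427). The call was lost with limma-voom, a random effect of litter and no weights together (log2 fold-change 0.99, limma FDR = 0.0634), without replicate 1 (0.96, limma FDR = 0.0745) and without replicate 3 (0.95, limma FDR = 0.133) of Kat6a-/-. Within litter 4633, Tap1 was at 11.1 CPM in the Kat6a+/+ library and at 49.5 and 17.2 CPM in the Kat6a-/- libraries, and within litter 4746 at 10.9 against 35.6 CPM.

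Tap2 was at 15.7, 21.2, 17.3 and 16.9 CPM in Kat6a+/+ and at 23.9, 19.0, 21.0 and 18.9 CPM in Kat6a-/- libraries, and the groups overlapped. Tap2 rose by 0.33 in log2 units (SE 0.09, limma FDR = 0.00846). This call was lost in most alternatives, among them without the weights (0.22, limma FDR = 0.198), with edgeR (0.22, FDR = 0.201) and with library totals in place of TMM (0.18, limma FDR = 0.0775). It was also lost without Kat6a+/+ replicate 1 (0.24, limma FDR = 0.0756), Kat6a-/- replicate 1 (0.23, limma FDR = 0.441) or Kat6a-/- replicate 3 (0.27, limma FDR = 0.424).

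The heavy chains overlapped among the genotypes. H2-K1 was at 47.7, 51.8, 52.9 and 55.2 CPM in Kat6a+/+, at 46.5, 58.4, 38.4 and 41.1 CPM in Kat6a+/- and at 43.3, 23.9, 54.6 and 30.5 CPM in Kat6a-/- libraries. Kat6a-/- replicates 2 and 4, the lower ones in B2m and Tap1, were also the lowest in H2-K1. The log2 fold-change was -0.08 (95% confidence interval -0.41 to 0.24, limma FDR = 0.649) with the weights, in which replicate 3, the highest one, counts most. It was -0.51 without the weights (limma FDR = 0.117), -0.44 with edgeR (FDR = 0.167), -0.53 without Kat6a-/- replicate 1 (limma FDR = 0.212) and -0.77 without replicate 3 (limma FDR = 0.0543), so that its size depended on the weighting while none of these passed. H2-D1 was at 26.5, 28.3, 23.6 and 33.1 CPM in Kat6a+/+ and at 23, 19.2, 26.6 and 25.1 CPM in Kat6a-/- libraries, which overlapped (log2 fold-change -0.05, 95% confidence interval -0.29 to 0.19, limma FDR = 0.726). The H2-D1 value was -0.25 without the weights (limma FDR = 0.223), -0.23 without Kat6a-/- replicate 1 (limma FDR = 0.574) and -0.33 without replicate 3 (limma FDR = 0.431).

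The ratio of the summed heavy chains to B2m was 0.400, 0.411, 0.392 and 0.439 in Kat6a+/+, 0.336, 0.282, 0.281 and 0.255 in Kat6a+/- and 0.161, 0.226, 0.169 and 0.204 in Kat6a-/- differentiating libraries. Here the 3 genotypes did not overlap, in the order of Kat6a copies. All 4 Kat6a-/- libraries, including those not high in B2m, were below the Kat6a+/- range. As a ratio within a library it is free of the scaling between libraries, and it shows unequal levels of the chains without saying which of them changed.

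**Figure D2:**
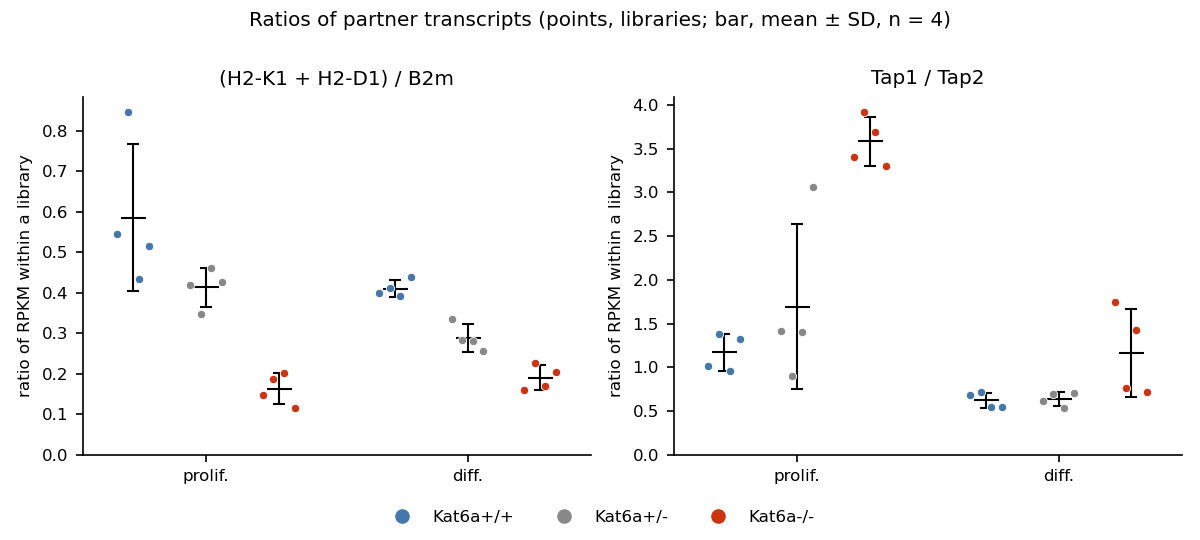
Ratios within each library of the summed RPKM of H2-K1 and H2-D1 to that of B2m, and of Tap1 to Tap2, by genotype and condition, with 1 point per library. The ratio of heavy chains to B2m is lowest in Kat6a-/- NSPCs in both conditions, at 0.116 to 0.201 in proliferating and 0.161 to 0.226 in differentiating libraries.

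Among the immunoproteasome subunits, Psmb8 was at 2.75, 2.84, 2.41 and 2.22 CPM in Kat6a+/+ and at 3.78, 0.956, 3.56 and 1.23 CPM in Kat6a-/- libraries, so that Kat6a-/- replicates 1 and 3 lay above and replicates 2 and 4 below the Kat6a+/+ range (log2 fold-change 0.25, 95% confidence interval -0.44 to 0.95, limma FDR = 0.524). Psmb9 ranged from 0.754 to 1.35 CPM in Kat6a+/+ and from 0.581 to 1.79 CPM in Kat6a-/- libraries (log2 fold-change -0.01, limma FDR = 0.985). Psmb10 ranged from 14.3 to 19.0 CPM and from 18.5 to 24.4 CPM (log2 fold-change 0.18, limma FDR = 0.2). Nlrc5 ranged from 0.936 to 2.18 CPM and from 1.10 to 2.76 CPM (log2 fold-change 0.50, limma FDR = 0.130). None of the 4 passed the test. Psmb8 turned to -0.32 without the weights (limma FDR = 0.670), and Nlrc5 was called without Kat6a-/- replicate 2 (0.61, limma FDR = 0.0146). Psmb9, with 9 to 28 counts in these libraries, was measured with little precision.

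In Kat6a+/- vs. Kat6a+/+ differentiating NSPCs, 0 of the 10 genes passed with limma, 1 was below an unadjusted p of 0.05, Tap2, and 0% of all genes passed, with 1926 below that unadjusted p, 8 called by DESeq2 and 0 by edgeR. The 4 Kat6a+/- libraries lay above all Kat6a+/+ libraries in B2m, but the log2 fold-change of 0.31 (95% confidence interval -0.03 to 0.64) did not pass (limma FDR = 0.379), where 2.79% of genes had groups that did not overlap. In Kat6a-/- vs. Kat6a+/- NSPCs, 3 of the 10 genes were higher, where 37.5% of all genes passed and 19.1% passed as higher. They were B2m (log2 fold-change 0.85, limma FDR = 0.00285), Tap1 (1.21, limma FDR = 0.00312) and Tapbp (0.61, limma FDR = 0.000391). None of these 3 calls held without Kat6a-/- replicate 1 or without replicate 3, with values of 0.54 and 0.49 for Tapbp, 0.30 and 0.08 for B2m and 0.70 and 0.70 for Tap1.

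**Figure D3:**
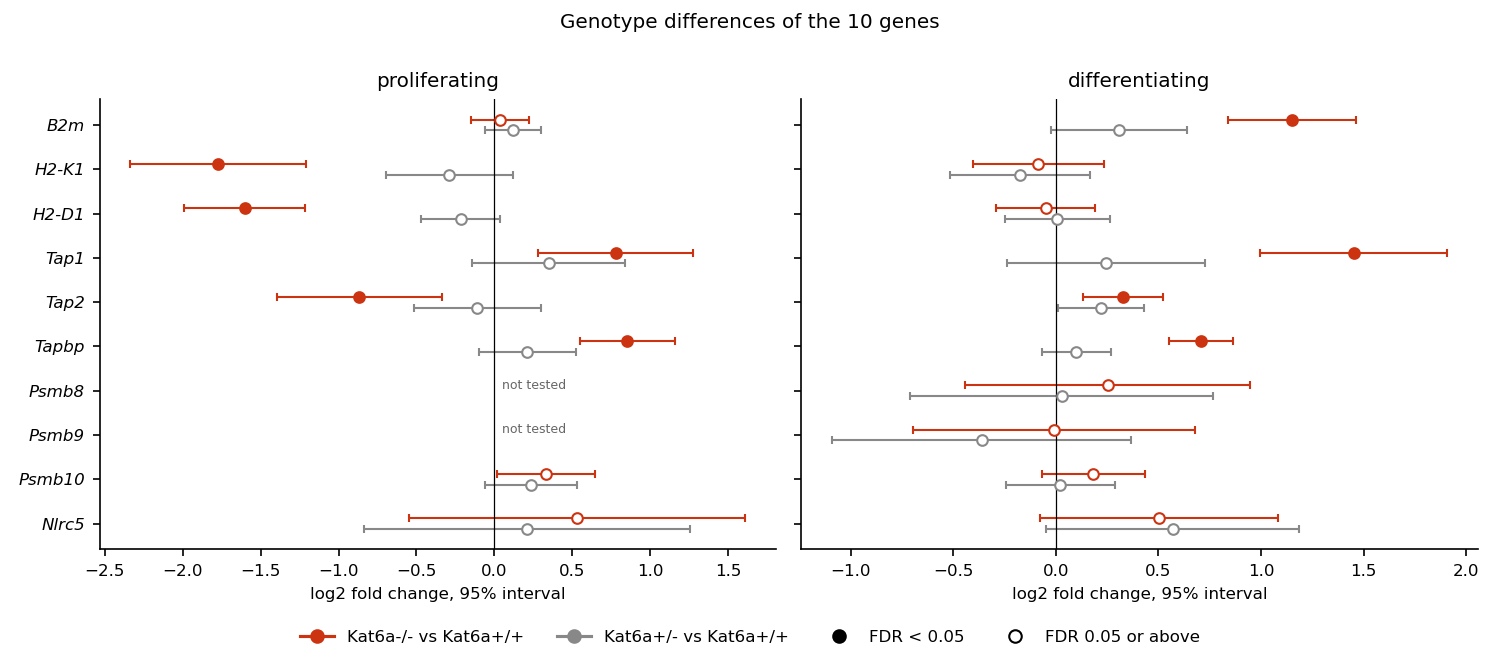
Fitted log2 fold-change (horizontal axis) of each class I gene for Kat6a-/- NSPCs and for Kat6a+/- NSPCs, each against Kat6a+/+, in each condition, with 95% confidence intervals and filled points at FDR under 0.05. H2-K1 and H2-D1 lie at -1.77 and -1.60 in proliferating and at -0.08 and -0.05 in differentiating Kat6a-/- NSPCs (-0.51 and -0.25 without the library weights), and no Kat6a+/- point is filled.

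The next comparison set the conditions against each other within a genotype. In Kat6a+/+ NSPCs, 8 of the 10 genes were higher in differentiating than in proliferating culture and 0 were lower, where 72.9% of all 13590 tested genes passed and 36.7% passed as higher and 36.2% as lower. The median log2 fold-change was 0.93, beside 0.02 for all genes. The steepest rise was that of Tapbp, from 14.8 ± 1.79 to 126 ± 8.65 CPM (mean ± SD, n = 4), an 8.29-fold change (limma FDR = 7.74e-14). Psmb9 rose by 2.42, Psmb8 by 1.84, Tap2 by 1.61, Nlrc5 by 1.11, Psmb10 by 0.74, B2m by 0.49 and H2-D1 by 0.32 on the log2 scale. H2-K1 differed by -0.15 (95% confidence interval -0.58 to 0.28, limma FDR = 0.524), and Tap1 by 0.75 without passing (limma FDR = 0.0697). All 4 differentiating libraries lay above the proliferating ones in Tap1, but barely, with a lowest value of 10.9 against a highest of 10.8 CPM. The share of all genes with groups that did not overlap was not computed between conditions.

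The rises of B2m, H2-D1 and Nlrc5 were the least firm. B2m lost its call without Kat6a+/+ proliferating replicate 2, H2-D1 without Kat6a+/+ differentiating replicate 4 or proliferating replicate 3, and Nlrc5 without Kat6a+/+ differentiating replicate 2 or proliferating replicate 2. Litters were shared between the conditions, and with litter as a fixed term all 3 calls were lost (limma FDR = 0.129 for B2m, 0.121 for H2-D1 and 0.299 for Nlrc5). In Kat6a+/- NSPCs 7 of the 10 genes rose, where 69.7% of all genes passed, 35.4% as higher and 34.2% as lower. The exceptions were H2-K1 (0.06), Tap1 (0.58, limma FDR = 0.195) and Psmb9 (1.16, limma FDR = 0.0606). With litter as a fixed term B2m (limma FDR = 0.0540), H2-D1 (limma FDR = 0.0773) and Nlrc5 (limma FDR = 0.132) were not called in this genotype either.

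In Kat6a-/- NSPCs 9 of the 10 genes rose, where 69.2% of all genes passed and 35.8% passed as higher. Here both heavy chains rose, while in the other genotypes only H2-D1 of the 2 was called (0.32 in Kat6a+/+ and 0.47 in Kat6a+/-). H2-K1 went from 15.7 ± 4.45 to 38.1 ± 13.6 CPM (log2 fold-change 1.26, SE 0.32, limma FDR = 0.00138) and H2-D1 from 6.77 ± 0.592 to 23.5 ± 3.21 CPM (log2 fold-change 1.77, SE 0.23, limma FDR = 5.55e-07). Every differentiating Kat6a-/- library lay above every proliferating one in both genes, a separation whose share over all genes was not computed. Tap2 rose by 2.68, Tapbp by 2.78 and Psmb8 by 2.71, the last from 2 to 3 counts a library. Tap1 rose by 0.96 (limma FDR = 0.0231), a call lost with litter as a fixed term (0.92, limma FDR = 0.0615), without Kat6a-/- differentiating replicate 1 (0.67, limma FDR = 0.0570) or 3 (0.80, limma FDR = 0.0588), and without Kat6a-/- proliferating replicate 1 (0.88, limma FDR = 0.0644), 2 (0.92, limma FDR = 0.0519) or 3 (0.87, limma FDR = 0.0671). Nlrc5 differed by 0.77 without passing (limma FDR = 0.128).

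**Figure D4:**
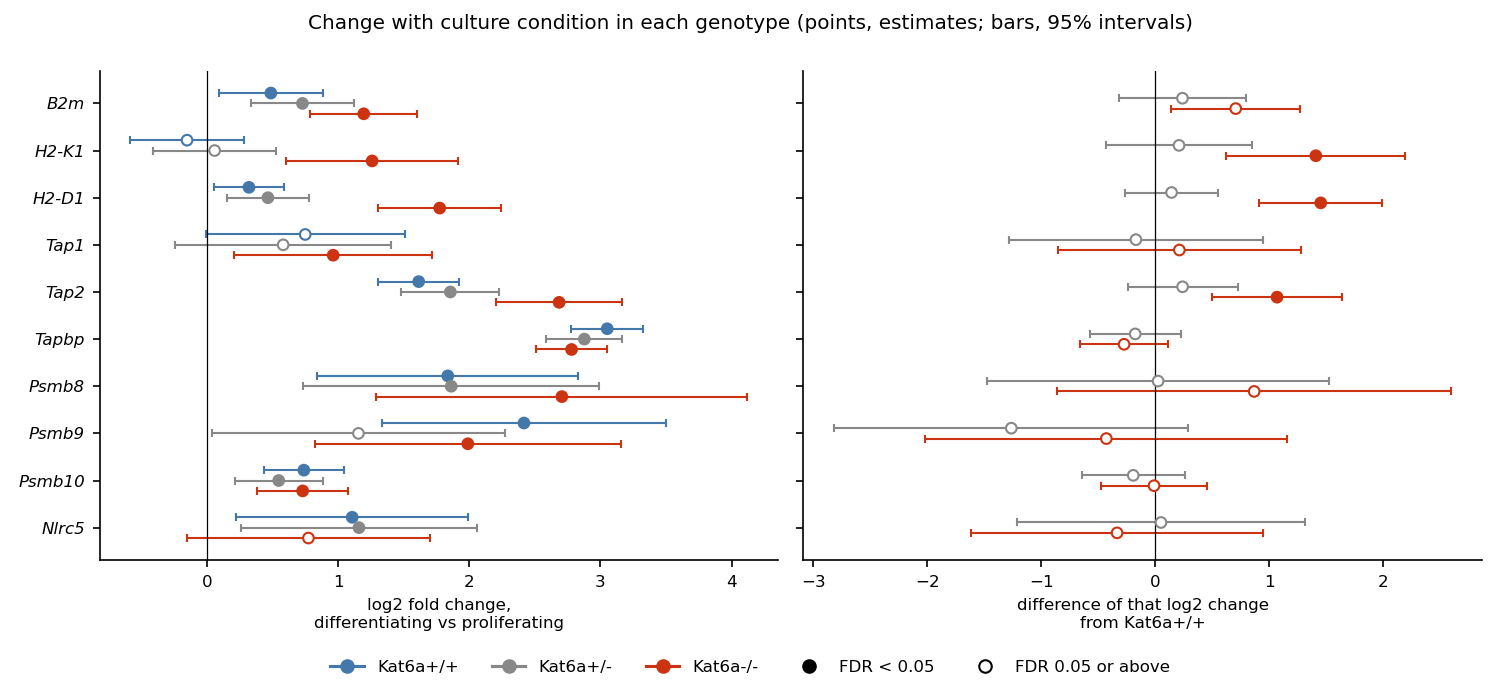
Fitted log2 fold-change (horizontal axis) of each class I gene for differentiating vs. proliferating culture in each genotype, with 95% confidence intervals and filled points at FDR under 0.05. Tapbp lies near 3 in all genotypes, while H2-K1 lies at -0.15 in Kat6a+/+, 0.06 in Kat6a+/- and 1.26 in Kat6a-/- NSPCs.

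Whether the effect of losing Kat6a differed between the conditions was tested as an interaction. In 3 of the 10 genes it passed, all with the Kat6a-/- effect more positive in differentiating culture, where 13.9% of all genes passed, 6.36% in that direction and 7.58% in the other. The interaction was 1.41 for H2-K1 (SE 0.38, limma FDR = 0.0162), 1.45 for H2-D1 (SE 0.26, limma FDR = 0.000884) and 1.07 for Tap2 (SE 0.27, limma FDR = 0.0122) on the log2 scale. H2-K1 lost this call without Kat6a-/- proliferating replicate 4 (1.16, limma FDR = 0.0591) and Tap2 without Kat6a+/+ proliferating replicate 1 (0.90, limma FDR = 0.0646). The interaction of B2m was 0.71 (limma FDR = 0.0862), which edgeR called (0.81, FDR = 0.0369), as did DESeq2 (0.79, FDR = 0.0217) and limma without Kat6a-/- differentiating replicate 2 (0.90, limma FDR = 0.00282). For Tap1 it was 0.21 (95% confidence interval -0.86 to 1.28) and for Tapbp -0.27 (95% confidence interval -0.66 to 0.12). For Kat6a+/- the interaction passed in 0 of 10 genes, with 0 below an unadjusted p of 0.05 in limma, where 0% of all genes passed and 412 were below that unadjusted p. edgeR and DESeq2 gave 0 for this interaction too.

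The class I genes did not vary as a block in either condition. Over the 12 proliferating libraries, the log2 CPM of H2-K1 and H2-D1 had a Pearson's r of 0.95, and that of H2-K1 and Tapbp -0.95. In differentiating libraries B2m and Tap1 had an r of 0.84 and Tap1 and Tap2 of 0.82, but H2-D1 and Tapbp one of -0.40. There the r of a class I gene with the mean of the others ran from -0.27 (Nlrc5) to 0.83 (Tap1), with 0.07 for H2-K1 and 0.03 for H2-D1. Libraries of 3 genotypes and shared litters enter these values, which are descriptions. Genes outside the set whose log2 CPM was most like the mean profile of the class I genes in differentiating libraries were Pold4 (r = 0.942), Chst7 (0.938), Tcn2 (0.938), Tlr2 (0.935) and Ppm1h (0.930), among 12637 genes. In proliferating libraries they were Cbs (0.932), Cox19 (0.906), Cyb561a3 (0.876), Rnf19b (0.855) and Fbxo6 (0.851), among 12034 genes, for a profile over the 8 tested class I genes. That profile averaged genes of opposite direction. The r of a class I gene with the mean of the others was only -0.37 (H2-K1) to 0.34 (Psmb10) there. Likeness to the proliferating profile is therefore not likeness to any single class I gene.

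Other genes of the pathway were grouped by role. The counts called in Kat6a-/- vs. Kat6a+/+ NSPCs stand beside 30% of all genes in proliferating culture, 16.2% as higher and 13.8% as lower, and 54.4% in differentiating culture, 26.7% as higher and 27.7% as lower. Among 17 other class I heavy chain genes, 9 were tested in proliferating NSPCs, and 1 was higher and 2 were lower in Kat6a-/- vs. Kat6a+/+ NSPCs, with a median of 0.08. Fcgrt, the neonatal Fc receptor chain, which also pairs with B2m, was at 0.253, 0.24, 0.302 and 0.254 CPM in Kat6a+/+ and at 3.85, 2.06, 1.42 and 7.78 CPM in Kat6a-/- libraries (log2 fold-change 3.37, limma FDR = 0.00147). The 2 lower genes were H2-Q7 and H2-Q4, named after their values were seen. H2-Q7 was at 5.89, 5.89, 3.42 and 4.57 CPM in Kat6a+/+ and at 1.70, 1.80, 1.64 and 0.798 CPM in Kat6a-/- libraries, with no overlap. Genes of this family share sequence, so reads of them may be counted in each other.

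In differentiating NSPCs 8 of the 17 were tested, and Fcgrt (1.39, limma FDR = 0.00193) and H2-T23 (0.46, limma FDR = 0.015) were higher and Cd1d1, which presents lipids, was lower (-1.16, limma FDR = 2.66e-06). The median was 0.19. H2-T23 turned to -0.14 without Kat6a-/- replicate 1 and to -0.21 without Kat6a-/- replicate 3. The Cd1d1 difference itself varied between conditions, with an interaction of -1.22 (limma FDR = 0.000179).

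Among 7 genes of peptide trimming and chain folding, none was called lower in Kat6a-/- vs. Kat6a+/+ NSPCs in either condition. In proliferating NSPCs 5 of 7 were higher and 0 lower, with a median of 0.24. Canx, the calnexin that holds new heavy chains, was at 644, 708, 724 and 657 CPM in Kat6a+/+ and at 883, 875, 900 and 867 CPM in Kat6a-/- libraries (log2 fold-change 0.38, limma FDR = 0.000742). Only 1 of the 7 was called without Kat6a+/+ replicate 1 or without Kat6a-/- replicate 3, and 3 with edgeR. In differentiating NSPCs 7 of 7 were higher, with a median of 0.66. Erap1, which trims peptides in the endoplasmic reticulum, was at 40.1, 38.1, 39.0 and 40.3 CPM in Kat6a+/+ and at 63.0, 52.4, 84.0 and 61.4 CPM in Kat6a-/- libraries, without overlap (log2 fold-change 0.94, limma FDR = 2.08e-05). The count dropped from 7 to 2 without Kat6a-/- replicate 1, to 0 without replicate 3 and to 3 without the weights.

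The constitutive catalytic subunits that the immunoproteasome replaces, Psmb5, Psmb6 and Psmb7, gave 0 calls of 3 in either condition, with limma log2 fold-changes of -0.13, -0.10 and 0.00 in proliferating and 0.13, -0.10 and 0.02 in differentiating NSPCs. edgeR and DESeq2 called 0 as well, and 1 was below an unadjusted p of 0.05 with limma in proliferating and 0 in differentiating NSPCs. Among 15 other proteasome core and activator genes, 0 were higher and 1 was lower in proliferating NSPCs, with a median of -0.10. The lower one was Psme4, a proteasome activator (-0.56, limma FDR = 8.94e-05). In differentiating NSPCs 3 were higher and 3 lower, with a median of -0.09. Psme1 and Psme2, which form the interferon-inducible activator, were higher by 0.31 (limma FDR = 0.00583) and 0.34 (limma FDR = 0.00773).

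The list of class I promoter factors and interferon signalling had 24 of 27 genes tested in proliferating NSPCs, with 3 higher, 5 lower and a median of -0.07, and 26 tested in differentiating NSPCs, with 12 higher, 8 lower and a median of 0.22. The 8 of 24 called in proliferating NSPCs stand beside 30% of all genes and the 20 of 26 in differentiating NSPCs beside 54.4%. Irf1, an interferon-induced transcription factor, was at 17.7, 16.3, 14.4 and 16.1 CPM in Kat6a+/+ and at 11.5, 13.3, 13.1 and 13.1 CPM in Kat6a-/- proliferating libraries (log2 fold-change -0.25, limma FDR = 0.163), which did not overlap. In differentiating culture Irf1 was at 13.0, 15.5, 11.5 and 13.4 CPM in Kat6a+/+ and at 21.1, 21.3, 25.1 and 19.6 CPM in Kat6a-/- libraries, again without overlap and in the other direction (log2 fold-change 0.89, limma FDR = 7.99e-05). Its interaction was 1.09 (limma FDR = 0.00115). Relb, a subunit of NF-kappaB, differed by 0.11 (limma FDR = 0.644) in proliferating NSPCs and rose by 1.92 (limma FDR = 4.83e-06) in differentiating NSPCs.

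Rfx5, a subunit of the factor that binds the X box of class I promoters, fell by 0.47 on the log2 scale in differentiating Kat6a-/- NSPCs (limma FDR = 0.00617), and Creb1 fell by 0.60 (limma FDR = 4.31e-06). Ifngr1 rose by 0.50 in differentiating NSPCs (limma FDR = 0.00118), and Ciita, the class II counterpart of Nlrc5, differed by 0.74 without passing (limma FDR = 0.0952). Without Kat6a-/- replicate 3 the counts of this list in differentiating NSPCs were 1 higher and 3 lower, and without replicate 1 they were 4 and 3.

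Of 30 interferon-stimulated genes, 16 were tested in proliferating NSPCs, with 2 higher, 1 lower and a median of -0.10. Bst2, a membrane protein that tethers virus particles, was the lower one and was named after its values were seen. It was at 8.52, 5.65, 9.15 and 7.86 CPM in Kat6a+/+ and at 2.04, 4.12, 2.08 and 2.89 CPM in Kat6a-/- libraries, without overlap. In differentiating NSPCs 26 were tested, and 22 were higher and 0 lower, with a median of 0.93, where 26.7% of all genes passed as higher. Ifit3 was at 3.96, 3.55, 2.51 and 1.34 CPM in Kat6a+/+ and at 16.4, 15.0, 17 and 8.78 CPM in Kat6a-/- libraries, without overlap (log2 fold-change 2.40, limma FDR = 0.000102). The count of 22 dropped to 2 without Kat6a-/- replicate 1 and to 1 without replicate 3, and it was 7 without the weights, 11 with edgeR and 16 with DESeq2.

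**Figure D5:**
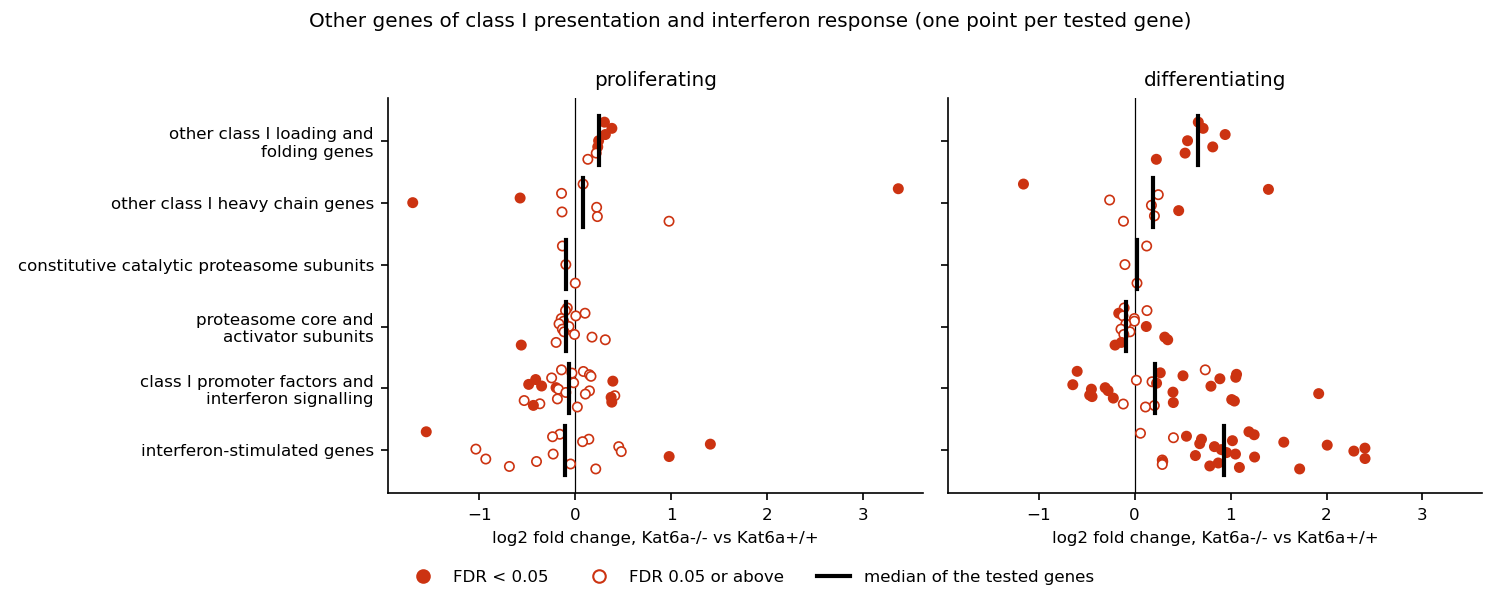
Log2 fold-change of Kat6a-/- vs. Kat6a+/+ for each tested gene of the other pathway lists in each condition, with 1 point per gene, filled at FDR under 0.05, and the median of the list. The interferon-stimulated genes have a median of -0.10 in proliferating and 0.93 in differentiating NSPCs.

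Markers of other cells were summed beside these results. In bulk RNA, a change in the number of cells of a type and a change in the RNA per cell cannot be told apart. Of 12 microglia and macrophage markers, 4 (Tyrobp, C1qa, C1qb and Trem2) were at 0 counts in every library, and the sum ranged from 0.273 to 1.14 CPM in differentiating libraries. In proliferating libraries the sum was 1.61 to 2.03 CPM in Kat6a+/+, 2.15 to 4.31 CPM in Kat6a+/- and 6.58 to 9.02 CPM in Kat6a-/-. P2ry12 was the one marker of that list above 1 CPM on average in a proliferating group, with 7.20 ± 1.10 CPM in Kat6a-/-. H2-Aa was at 0 in all proliferating groups, and the 6 class II genes summed to 1.80 to 12.7 CPM over all libraries.

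Among 10 mesenchymal and meningeal markers, 8 to 10 had any count in each group. Only 4 or 5 lay above 1 CPM on average in differentiating groups and 2 or 3 in proliferating ones, so few genes carried the sums. In differentiating Kat6a-/- vs. Kat6a+/+ NSPCs 6 were tested, and 5 were called higher and 0 lower (median log2 fold-change 1.46), where 26.7% of all genes passed as higher. The sum of the 10 markers was 575, 164, 538 and 388 CPM in differentiating Kat6a-/- replicates 1 to 4, beside 126 to 170 CPM in Kat6a+/+. Replicates 1 and 3, with the highest B2m, Tap1 and Psmb8 among the Kat6a-/- libraries, thus also had the highest mesenchymal sums. The 10 astrocyte markers summed to 2718, 9642, 2937 and 4861 CPM in the same 4 libraries, so that replicate 2 was highest, beside 3211 to 4286 CPM in Kat6a+/+, and 1 of them was called higher and 4 lower (median -0.23). Of the 8 endothelial markers, 1 lay above 1 CPM on average in each group, with sums of 46.5 to 73.1 CPM in Kat6a+/+ and 10.9 to 37.3 CPM in Kat6a-/- differentiating libraries. The 10 neuron markers summed to 587 to 770 CPM in Kat6a+/+ and 527 to 912 CPM in Kat6a-/-, which overlapped, while 3 of them were called higher and 5 lower (median log2 fold-change -0.37). The 10 neural stem and progenitor markers summed to 6747 to 8469 CPM in Kat6a+/+ and 8621 to 12615 CPM in Kat6a-/-, without overlap, although 3 were called higher and 6 lower (median -0.71). The part of these cells in the class I values of differentiating cultures was not tested.

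In proliferating culture, where the heavy chains fell, the mesenchymal sums were 110 to 130 CPM in Kat6a+/+ and 114 to 167 CPM in Kat6a-/-, and the astrocyte sums were 1542 to 1799 CPM and 2661 to 4053 CPM. The neural stem and progenitor sums were 7599 to 8486 CPM in Kat6a+/+ and 5431 to 7546 CPM in Kat6a-/-, with 2 markers called higher and 4 lower. The astrocyte sums were thus higher and the neural stem and progenitor sums lower in all Kat6a-/- than in all Kat6a+/+ proliferating libraries, and their part in the class I values was not tested.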

How the data were processed

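Stranded mRNA libraries from 24 NSPC cultures were sequenced by the authors, who aligned reads to mm39 with Rsubread and counted them per gene with featureCounts and a strict RefSeq annotation. The deposited values are raw counts per gene, with the gene length. Software versions and the strand setting of the counting were not given in the sources used here, so reads of overlapping genes may be counted in each other. The 12 libraries of each condition formed 3 groups of 4, grouped by the genotype label.

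Genes were restricted to protein-coding ones by Entrez identifier in a RefSeq table, which matched 26359 of 26411 genes and left 52 unmatched. Xist and Y-linked genes were removed, and filterByExpr and TMM of edgeR 4.0.16 were applied in R 4.3.3. This left 12276 genes in proliferating, 13339 in differentiating and 13590 in all libraries. As in the study's methods, limma 3.58.1 was used, limma-voom with a random effect of litter (correlation 0.287 between litter mates) for proliferating and limma-trend on log2 CPM (prior count 2) with library quality weights for differentiating libraries, both with robust moderation. Contrasts between conditions and interactions used limma-voom on all 24 libraries with the same random effect (correlation 0.00365). Libraries that share an embryo label were thus tied only through their litter in this fit. The Benjamini-Hochberg adjustment ran over all tested genes, and genes were called at FDR under 0.05. CPM and RPKM printed were computed on the TMM scale without weights. The scripts were tested on simulated data.

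Alternatives were edgeR's quasi-likelihood test, DESeq2 1.42.0, library totals in place of TMM, no filter on low counts, litter as a fixed term, sex as a covariate, a replicate block, no litter block, no weights, limma-voom with a random effect of litter in place of limma-trend with weights, another prior count, and each library left out. For contrasts between conditions and interactions, the embryo label as a random block was a further alternative. The class I genes and the gene lists were chosen with earlier results of these data known. The named genes were the 10 class I genes, up to 4 of each other list with the smallest p in differentiating Kat6a-/- vs. Kat6a+/+ NSPCs, 12 further genes fixed by symbol (1 of them is not reported here), and the 5 genes most like the class I profile in each condition. H2-Q7, H2-Q4, Bst2 and P2ry12 were named after their values were seen. Replicates had at least a chi-square per degree of freedom of 5.55 between them, so none was a copy of another. Promoter windows came from RefSeq on GRCm38.p6. Gene positions, exon overlaps and shared words came from the GENCODE annotation on GRCm39, not from the RefSeq models used for counting.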

Additional observations from a re-analysis of the deposited data

Results flagged for a closer look

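In 5 of 60 groups of 4 libraries the gap between the highest or lowest class I value and its nearest neighbour exceeded Dixon's 95% critical value as a share of the range, where chance gives about 1 in 20. They were B2m in Kat6a+/+ proliferating replicate 2 (62.5 CPM, nearest 72.9 CPM), Psmb8 in Kat6a+/- differentiating replicate 3 (1.00 CPM, nearest 3.13 CPM), Psmb8 in Kat6a-/- proliferating replicate 2 (0.387 CPM, nearest 0.226 CPM), Tap1 in Kat6a-/- proliferating replicate 4 (18.7 CPM, nearest 12 CPM) and Tap2 in Kat6a-/- proliferating replicate 4 (4.79 CPM, nearest 2.83 CPM). The Psmb8 value in Kat6a-/- replicate 2 is 3 counts beside 2 in the others.

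The effect of Kat6a-/- genotype differed between the conditions by the interaction test in H2-K1 (1.41 on the log2 scale), H2-D1 (1.45) and Tap2 (1.07).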

How the results depend on the processing

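Over the class I genes and all comparisons, 848 values under other settings kept their side of the FDR threshold and their sign, 7 gained a call, 33 lost one and 54 changed sign while called in neither analysis. With 1 library left out these numbers were 1740, 12, 32 and 64. No called class I gene changed direction. Library totals in place of TMM moved the median of all genes in differentiating Kat6a-/- vs. Kat6a+/+ NSPCs from -0.02 to -0.17, and changed the call of Tap2 alone among the class I genes there.

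In differentiating Kat6a-/- vs. Kat6a+/+ NSPCs the 4 calls became 2 with litter as a fixed term and 1 with limma-voom, a random effect of litter and no weights together (the litter-blocked voom fit). In differentiating Kat6a-/- vs. Kat6a+/- NSPCs the 3 calls became 1 with edgeR, 0 with litter as a fixed term, 1 with sex as a covariate, 1 without weights and 1 with the litter-blocked voom fit. With litter as a fixed term the 8 calls between conditions in Kat6a+/+ became 5 and the 7 in Kat6a+/- became 4. The cause was not tested. Of the listed genes, H2-T23 turned to -0.14 and -0.21 in differentiating Kat6a-/- vs. Kat6a+/+ NSPCs without Kat6a-/- replicate 1 and 3, and its highest value with 1 library left out was 0.50, without Kat6a-/- replicate 2.

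With each library left out in turn, the number of class I genes called in proliferating NSPCs ranged from 3 to 5 for Kat6a-/- vs. Kat6a+/+, with 3 without Kat6a+/+ replicate 1, from 0 to 0 for Kat6a+/- vs. Kat6a+/+ and from 3 to 4 for Kat6a-/- vs. Kat6a+/-. In differentiating NSPCs it ranged from 1 to 5 for Kat6a-/- vs. Kat6a+/+, from 0 to 0 for Kat6a+/- vs. Kat6a+/+ and from 0 to 3 for Kat6a-/- vs. Kat6a+/-, with the lowest values without Kat6a-/- replicate 1 or 3. Between conditions it ranged from 6 to 9 in Kat6a+/+, 6 to 8 in Kat6a+/- and 8 to 9 in Kat6a-/-, and for the interaction from 2 to 4 in Kat6a-/- and from 0 to 0 in Kat6a+/-.

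Replicate numbers did not pair the samples, with correlations of same-numbered libraries from -0.43 to 0.54 in proliferating and from -0.48 to 0.16 in differentiating culture. With the replicate block the counts of called class I genes were 5, 0 and 3 in proliferating and 4, 0 and 3 in differentiating comparisons in the order above, 8, 7 and 9 between conditions and 3 and 0 for the interactions, as without it. Counts over all genes depended more on the method. In differentiating Kat6a-/- vs. Kat6a+/+ NSPCs 7258 genes were called, and 3244 with edgeR, 4076 with DESeq2, 1785 with litter as a fixed term, 3950 with sex as a covariate, 3097 without weights and 2806 with the litter-blocked voom fit. In differentiating Kat6a-/- vs. Kat6a+/- NSPCs 5007 were called, and 1656, 2621, 386, 1605, 1616 and 1406 in the same order, and 3031 without the filter. In proliferating NSPCs the 3686 calls for Kat6a-/- vs. Kat6a+/+ became 1936 with litter as a fixed term, and the 1813 for Kat6a-/- vs. Kat6a+/- became 951 with edgeR and 960 without the litter block. Depth limits Psmb8, Psmb9 and Nlrc5, which rested on 1 to 59 counts a library.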
